A study of Homo sapiens with 4 samples.

Results

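The BCL2 family genes described here were 10 regulators of apoptosis, chosen by gene name: BCL2, BCL2L1 and MCL1, which restrain cell death, BAX and BAK1, which carry it out at mitochondria, and the death-promoting genes BCL2L11, PMAIP1, BID, BIK and BMF. They were 10 of the 31907 gene names that the 4 libraries listed between them. The libraries came from HGC-27, a human gastric cancer (GC) cell line. In 2 of them the cells had received PBS, the vehicle, and in the other 2 they had received recombinant IL-17B (rIL-17B) at 200 ng/ml, each for 48 h. Smart-seq2 libraries were made, in which oligo-dT primes the RNA and PCR multiplies the product. Nothing in the labels says that the 2 libraries of a group came from separate cultures, so the spread between them may be technical. Of the 10 genes, 9 passed the filter on low counts and were tested, while BIK did not pass.

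The BCL2 family controls whether the outer membrane of mitochondria is opened, the step that lets cytochrome c into the cytosol and starts the caspases. Pro-survival members bind and hold the BH3 helix of the other members. BH3-only proteins occupy that groove or act on BAX and BAK1 directly, and free BAX and BAK1 assemble into pores. Many of these genes are set by transcription or by rapid protein turnover, so that their mRNA level is one of several layers of control.

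The BH3 core is what the 10 genes share at the level of sequence, and its coding DNA is shown for that reason. A leucine codon, 3 codons of any kind, a codon GGN or GCN and then GAT or GAC were searched in frame in the principal coding sequence of each gene (GENCODE 29, GRCh38). Each of the 10 genes held 1 match, against 24.8% of 19510 coding sequences with at least 1, so the match alone does not mark the family. Each line gives 27 bases, 5′ to 3′ on the coding strand, with the leucine codon and the last 2 codons of the core in capitals.
MCL1: accTTAcgacgggttGGGGATggcgtg
BCL2L1: gcgCTGagggaggcaGGCGACgagttt
BCL2: accCTCcgccaggccGGCGACgacttc
BAX: tgtCTCaagcgcatcGGGGACgaactg
BAK1: cagCTCgccatcatcGGGGACgacatc
BCL2L11: gagTTGcggcgtattGGAGACgagttt
PMAIP1: caaCTCaggagatttGGAGACaaactg
BID: cacCTCgcccaggtcGGGGACagcatg
BIK: cggCTGgcctgcatcGGGGACgagatg
BMF: aagCTTcagtgcattGCAGACcagttc
These stretches lie in coding exons, at chr1:150578871-150578897 for MCL1, chr20:31721928-31721954 for BCL2L1, chr18:63318355-63318381 for BCL2, chr19:48955784-48955810 for BAX and chr6:33575393-33575419 for BAK1. For the BH3-only genes they lie at chr2:111150100-111150126 for BCL2L11, chr18:59902670-59902696 for PMAIP1, chr22:17739421-17739447 for BID, chr22:43127713-43127739 for BIK and chr15:40104201-40104227 for BMF. BMF was the one member with a GCN codon, for alanine, in place of GGN, for glycine, and MCL1 was the one that ended in GAT. Codons for asparagine, tryptophan, glycine and arginine in a row, a stretch of the BH1 region, were found in MCL1, BCL2L1, BCL2, BAX and BAK1 and in none of the 5 BH3-only genes. Over all coding sequences they were found in 21 of 19510 (0.108%). The coding sequences ran from 54 codons for PMAIP1 to 350 codons for MCL1.

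One of the treated libraries, rIL-17B replicate 1, stood apart from the other 3. After 0.5 CPM was added to each value, 20.7% and 21.8% of the 16361 tested genes differed at least 2-fold between rIL-17B replicate 1 and the PBS libraries, against 0.513% and 1.80% for rIL-17B replicate 2 and 0.672% between the PBS libraries. CPM, the unit used where raw counts are not named, is the count scaled to a common library total. The 4 libraries held between 12888029 and 17555879 counts, so that 3 counts, the smallest number taken as a signal, corresponded to between 0.171 and 0.233 CPM. In the same library 6 of 6 mesenchymal markers were below both PBS libraries, with a summed level of 942 CPM against 49924 and 50908 CPM with PBS and 42563 CPM in rIL-17B replicate 2. Of 5 epithelial markers, 4 were above both PBS libraries there, led by the keratin genes KRT8 and KRT18, and the sum was 1818 CPM against 777 and 783 CPM with PBS and 1001 CPM in rIL-17B replicate 2. CDH1, among the 4, had 11 counts there against 7 and 8 with PBS. The keratin gene KRT19 went the other way, with 1 count there against 47 and 43 with PBS and 58 in rIL-17B replicate 2. Of 6 neural markers, 5 were below, with a sum of 59.1 CPM against 394 and 606 CPM with PBS and 293 CPM in replicate 2. GFAP, among the 5, had 9 counts there against 11 and 8 with PBS, and DCX was at 0 in all 4 libraries. The library protocol in the labels speaks of monocytes, but 7 monocyte markers summed to between 8.55 and 10.4 CPM in every library, and in rIL-17B replicate 1, where PTPRC, LYZ, ITGAM and FCGR3A were at 0, CSF1R made up most of the sum, with 119 counts against 62 and 72 with PBS. CD68 had 2 counts there and 0 in both PBS libraries. FN1, the gene of fibronectin, had 2172 counts in rIL-17B replicate 1 and between 418314 and 526938 counts in each of the other 3 libraries. Whether this library holds the labelled cells and treatment alone was not settled by these values, and each result that includes it carries that limit. The part of these shifts in the results below was not tested. In bulk RNA, fewer cells with a transcript and less of it per cell cannot be told apart. Values of the members are therefore given for each rIL-17B library.

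MCL1, which encodes a short-lived pro-survival protein, was the most abundant of the 10 genes in each library. It had 268 and 259 CPM with PBS, 219.6 CPM in rIL-17B replicate 1 and 249 CPM in rIL-17B replicate 2 (263 ± 6.81 with PBS and 234 ± 20.8 with rIL-17B, SD, n = 2 libraries each). Both treated libraries were below both PBS libraries, and the log2 fold change was -0.23 (standard error, SE, 0.15, and 0.661 as the adjusted p of edgeR's quasi-likelihood test). Relative to the pooled PBS counts the ratio was 0.832 in rIL-17B replicate 1 (95% interval 0.798 to 0.867) and 0.944 in replicate 2 (0.909 to 0.980). These exact conditional intervals cover counting error only and treat each count as independent. PCR copies are not independent molecules, so the intervals may be too narrow even for that error. The libraries of 1 group also differed by more than counting error. MCL1 lies on chromosome 1 (150574551 to 150579738) and shares exon sequence with ADAMTSL4-AS1, which had at most 13 counts.

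BCL2L1, the gene of the pro-survival protein BCL-XL, was, of the tested members, the one whose treated libraries differed most as a ratio. Its levels were 54.4 and 53.2 CPM with PBS, 23.3 CPM in rIL-17B replicate 1 and 49.5 CPM in rIL-17B replicate 2. Both treated libraries lay below the PBS libraries, but replicate 1 was at 0.433 of PBS (95% counting interval 0.384 to 0.488) and replicate 2 at 0.919 (0.845 to 0.9998). Its log2 fold change was -0.61 with a standard error of 0.46 (edgeR adjusted p = 0.661), and without rIL-17B replicate 1 it was -0.12 with a standard error of 0.11 (adjusted p = 0.689 from the same test). In rIL-17B replicate 1, 16.2% of all tested genes were at least as far from the PBS mean as BCL2L1 in either direction. BCL2L1 lies on chromosome 20 (31664452 to 31723989) with 9 annotated transcripts, which gene counts add up, so the long and the short splice form, of opposite function, were not told apart. The antisense RNA ABALON overlaps its exons and had between 5 and 9 counts.

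BCL2, the founding pro-survival gene, was low, and its groups overlapped. It had 13.1 and 14.3 CPM in the PBS libraries, 16.6 CPM in rIL-17B replicate 1 and 13.6 CPM in replicate 2. On the log2 scale the fold change was 0.07 (SE 0.17, edgeR adjusted p = 0.839), and it was -0.01 without rIL-17B replicate 1. BCL2 lies on chromosome 18 (63123346 to 63320128).

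BAX was the more abundant of the pore-forming effectors, and of the 9 tested genes the one with the lowest ratio to PBS in rIL-17B replicate 2. It had 68.7 and 74.95 CPM with PBS, 44.7 CPM in rIL-17B replicate 1 and 59.1 CPM in rIL-17B replicate 2. Neither treated library reached the PBS range, and the group means were 71.8 ± 4.45 and 51.9 ± 10.2 CPM (SD, n = 2 libraries each). The ratio to PBS was 0.625 in replicate 1 (95% counting interval 0.572 to 0.683) and 0.827 in replicate 2 (0.767 to 0.892), where that of PBS replicate 1 to PBS replicate 2 was 0.916 (0.839 to 0.9999). The log2 fold change of -0.53 (standard error 0.22) had an unadjusted p of 0.0816 in edgeR's test, and 0.661 after adjustment. Without rIL-17B replicate 1 it was -0.28 (standard error 0.10), with an unadjusted p of 0.0058 and an adjusted p of 0.118 in the same test. For comparison, 2.95% of genes had an adjusted p under 0.05 and 13.7% an unadjusted p under 0.05 in that fit of 1 treated library against both PBS libraries. BAX lies on chromosome 19 (48954815 to 48961798), with no overlapping exon of another gene.

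BAK1, the second effector, had higher values in rIL-17B replicate 1 only. It had 19.5 and 21.6 CPM in the PBS libraries, 28.2 CPM in rIL-17B replicate 1 and 20.7 CPM in replicate 2, so that the groups overlapped. The log2 fold change was 0.17 (SE 0.18, edgeR adjusted p = 0.681) and 0.01 without rIL-17B replicate 1. BAK1 lies on chromosome 6 (33572547 to 33580293). Its pseudogenes BAK1P1 and BAK1P2 had at most 5 counts, and how shared reads were treated is not given in the sources used here.

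**Figure D1:**
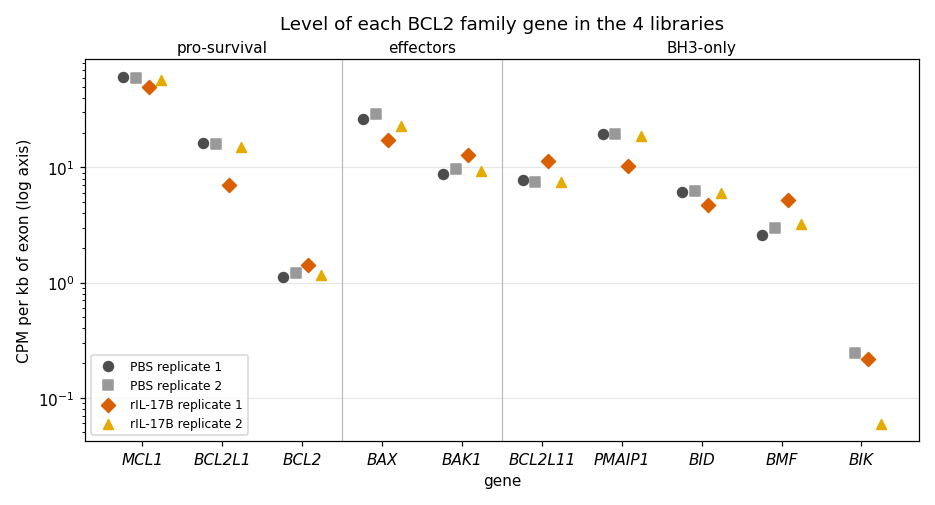
Level of each gene in CPM per kb of exon (log axis) in the 4 libraries, 1 point per library, ordered by role. MCL1 was highest in each library at 50.2 to 61.4, BCL2L1 and PMAIP1 were lower in rIL-17B replicate 1 than in the other 3 libraries, and BIK, which was not listed in PBS replicate 1 and was given 0 there, has 3 points.

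Among the BH3-only genes, BCL2L11, which encodes BIM, a potent partner of every pro-survival protein, was the highest in CPM. It had 52.1 and 49.3 CPM with PBS, 75.5 CPM in rIL-17B replicate 1 and 49.7 CPM in rIL-17B replicate 2. Only replicate 1 was outside the PBS range, at 1.49 times PBS (95% counting interval 1.37 to 1.61), while replicate 2 lay between the PBS libraries. Its log2 fold change was 0.22 (SE 0.20, edgeR adjusted p = 0.667), and -0.03 without rIL-17B replicate 1. BCL2L11 lies on chromosome 2 (111119378 to 111168447), and MIR4435-2HG, a noncoding gene on the opposite strand with 339 to 467 counts, overlaps its exons.

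PMAIP1, the gene of NOXA, which binds MCL1 preferentially, was lower in rIL-17B replicate 1. It had 43.2 and 43.8 CPM in the PBS libraries, 22.9 CPM in rIL-17B replicate 1 and 41.8 CPM in replicate 2. Both treated libraries were below PBS, at a ratio of 0.527 in replicate 1 (95% counting interval 0.466 to 0.595) and 0.960 in replicate 2 (0.875 to 1.05). Its log2 fold change was -0.48 (SE 0.38, edgeR adjusted p = 0.661), and -0.06 without rIL-17B replicate 1. PMAIP1 lies on chromosome 18 (59899948 to 59904306).

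BMF, whose protein is held at the cytoskeleton through a dynein light chain, was the only member with both treated libraries above both PBS libraries. Its levels were 14.1 and 16.4 CPM with PBS, 28.4 CPM in rIL-17B replicate 1 and 17.6 CPM in rIL-17B replicate 2. The ratio to PBS was 1.88 in replicate 1 (95% counting interval 1.64 to 2.15) and 1.17 in replicate 2 (1.004 to 1.35), against 0.860 between the PBS libraries (0.710 to 1.04). On the log2 scale the fold change was 0.51 (standard error 0.26, unadjusted p = 0.125, edgeR adjusted p = 0.661), and 0.21 (standard error 0.16, adjusted p = 0.627) without rIL-17B replicate 1. BMF lies on chromosome 15 (40087890 to 40108892).

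BID, the link from death receptors to mitochondria, which caspase-8 cleaves, varied less. It had 27.4 and 27.9 CPM in the PBS libraries, 21.01 CPM in rIL-17B replicate 1 and 26.8 CPM in replicate 2, both below PBS, with a log2 fold change of -0.27 (SE 0.21, edgeR adjusted p = 0.661) and of -0.05 without rIL-17B replicate 1. BID lies on chromosome 22 (17734138 to 17774770).

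BIK, a BH3-only gene of epithelial cells and the endoplasmic reticulum, was barely seen. It had 0 and 3 counts in the PBS libraries, 3 counts in rIL-17B replicate 1 and 1 count in replicate 2, at or under the smallest signal in each library, so no fold is given and a difference was not detectable at this depth. BIK lies on chromosome 22 (43110748 to 43129712).

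Across the members, 0 of 9 tested genes passed the threshold of 0.05 on the adjusted p of edgeR for rIL-17B against PBS, and 0 of all 16361 tested genes did (0%). An unadjusted p under 0.05 was found for 0 of the 9 and for 226 of all genes (1.38%). DESeq2 gave 0 of 9 and 0 of 16361 (0%) after adjustment, and 0 and 457 (2.79%) before it. The 9 log2 fold changes ran from -0.61 for BCL2L1 to 0.51 for BMF, with a median of -0.23 against -0.03 over all tested genes. Of the 9, 4 were above 0 and 5 below, where 7753 of all 16361 tested genes were above and 8608 below. Without rIL-17B replicate 1 the median was -0.05 against -0.01. For BCL2L1, MCL1, PMAIP1, BID and BAX both treated libraries lay below both PBS libraries in TMM-normalized CPM, as they did for 30.4% of all genes, and for BMF both lay above, as for 28.5% of all genes. With 6 of 9 members and 58.9% of all genes, the share of groups without overlap was near the background. With 2 libraries a group, an exact permutation test of 1 gene could not pass the threshold, and none is given.

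The treated libraries are set side by side here, each against the same PBS libraries. In rIL-17B replicate 1, all 9 members were outside the PBS range, 4 above it (BCL2L11, BMF, BAK1 and BCL2) and 5 below it, where 42.5% of all tested genes were above and 47.7% below. At least 2-fold lower were 2 members, BCL2L1 and PMAIP1, against 19.8% of all genes, and 0 were 2-fold higher, against 1.05%. In rIL-17B replicate 2, 1 member was above the PBS range and 5 below, against 36.0% and 37.1% of all genes, and 0 were 2-fold apart, against 0.0733% higher and 0.489% lower. When rIL-17B replicate 1 alone was fitted against PBS in edgeR, 8 of the 9 members, all but BCL2, had an adjusted p under 0.05, as did 9489 of 17223 genes (55.1%), and the log2 fold change was -1.34 for BCL2L1 and 0.77 for BMF. When replicate 2 alone was fitted, 0 of the 9 had, and 504 of 17103 genes (2.95%) had. Each of those fits compares 1 treated library with PBS, assumes that it varies like the others, and says nothing of how rIL-17B acts in other cultures.

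**Figure D2:**
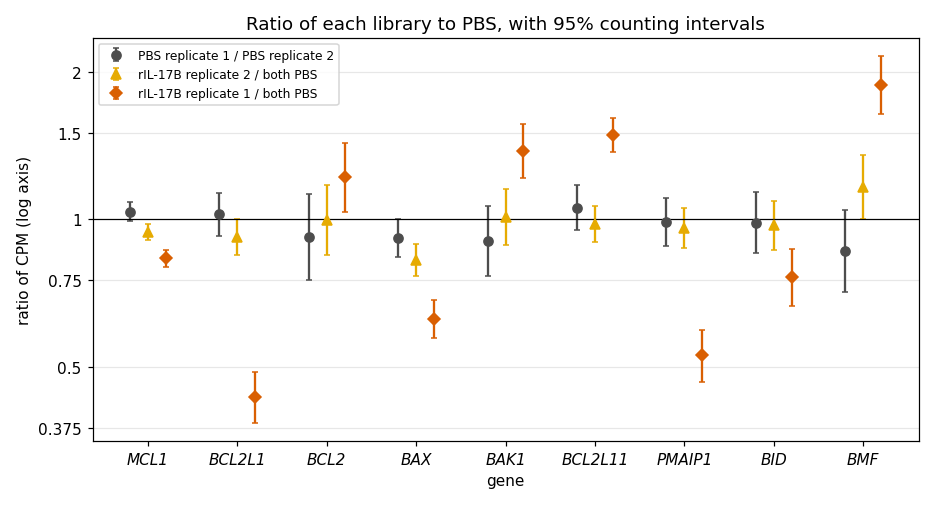
Ratio of CPM (log axis) for the 9 tested genes: PBS replicate 1 over PBS replicate 2, and each rIL-17B library over the pooled PBS libraries, with 95% counting intervals. The points of rIL-17B replicate 1 range from 0.433 for BCL2L1 to 1.88 for BMF, while those of rIL-17B replicate 2 range from 0.827 for BAX to 1.17 for BMF.

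Levels were compared between genes per kb of exon. With PBS, MCL1 had 60.2 ± 1.56 CPM per kb (SD, n = 2 libraries), followed by BAX with 27.8 ± 1.72, PMAIP1 with 19.5 ± 0.204 and BCL2L1 with 16.2 ± 0.264. Then came BAK1 with 9.28 ± 0.665, BCL2L11 with 7.61 ± 0.296, BID with 6.22 ± 0.0703, BMF with 2.80 ± 0.297, BCL2 with 1.17 ± 0.0683 and BIK with 0.122 ± 0.173. Every step of this order was larger than the summed SDs of the neighbouring genes. When the longest transcript replaced the union of exons as the length, BID moved ahead of BCL2L11 and BAK1, so the order of these 3 depends on the gene model. The same order held in rIL-17B replicate 2, whereas in rIL-17B replicate 1 BAK1 and BCL2L11 ranked above PMAIP1 and BCL2L1. Summed over roles, the pro-survival genes had 78.9 and 76.4 CPM per kb with PBS, 58.7 in rIL-17B replicate 1 and 73.1 in replicate 2. The effectors had 35.4 and 38.7 with PBS against 30.01 and 32.2, and the BH3-only genes 35.9 and 36.5 against 31.8 and 35.5. Of the pro-survival level, MCL1 held 77.8% and 77.4% with PBS and 78.0% in rIL-17B replicate 2, but 85.6% in rIL-17B replicate 1, where BCL2L1 held 12.0% in place of 20.8% and 21.0%.

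Ratios of one member to another within a library do not depend on how libraries are scaled. The 6 pairs were chosen after the counts had been seen, so they are descriptions. Per kb, BCL2L1 exceeded BCL2L11 2.099-fold and 2.17-fold with PBS and 2.00-fold in rIL-17B replicate 2, but was at 0.621 of it in rIL-17B replicate 1 (95% counting interval 0.548 to 0.701). The ratio of BAX to BAK1 was 3.01 and 2.97 with PBS, 1.36 in rIL-17B replicate 1 and 2.45 in replicate 2 (2.17 to 2.76). Replicate 2 was below both PBS values. Its interval overlapped those of PBS, which does not settle whether the ratios differ. The size of this ratio depends on the gene model in every library. BAX has 2587 bases as the union of exons and 1358 as the longest transcript, while BAK1 has 2212 by both. BCL2L1 over BMF was 6.35 and 5.34 with PBS, 1.35 in rIL-17B replicate 1 and 4.62 in replicate 2. MCL1 over BCL2L1 was 3.74 and 3.69 with PBS, 7.13 in rIL-17B replicate 1 and 3.81 in replicate 2. For MCL1 over its partner PMAIP1 the ratio was 3.17 and 3.02 with PBS, 4.90 in rIL-17B replicate 1 and 3.05 in replicate 2. Thus PMAIP1 was further below PBS than MCL1 was in rIL-17B replicate 1, and the ratio in replicate 2 lay within the PBS range.

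**Figure D3:**
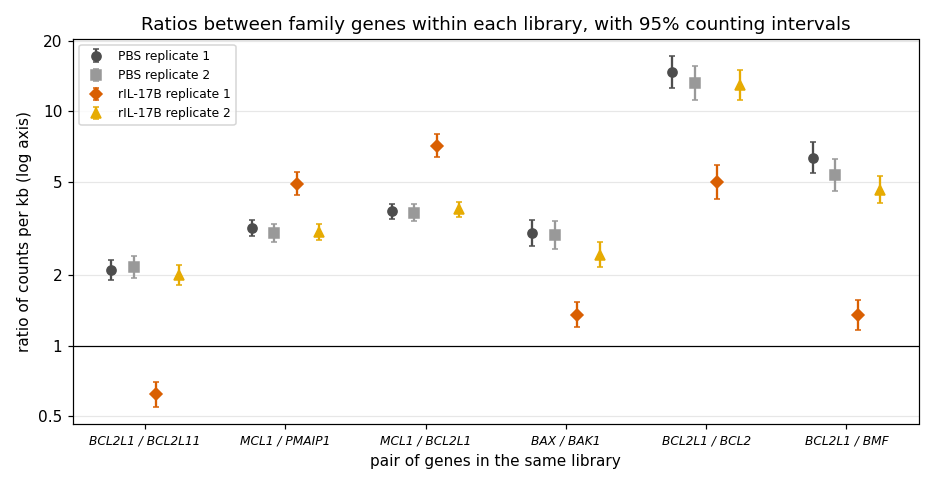
Ratio of counts per kb between pairs of family genes within each library (log axis), with 95% counting intervals. In rIL-17B replicate 1 BCL2L1 falls below BCL2L11, at 0.621, and its ratio to BCL2 is 4.98, against 12.9 to 14.7 in the other 3 libraries.

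Of the 13 other genes of the family, 10 were tested, with 0 genes past the threshold on edgeR's adjusted p and a median log2 fold change of -0.48, or -0.11 without rIL-17B replicate 1. BCL2L12 was the 1 gene above 0 (0.19), and 9 were below. Over all 16361 tested genes 7753 were above 0 and 8608 below, which is the background for the lists that follow too. BCL2L12 had 17.7 and 18.9 CPM in the PBS libraries, 25.7 CPM in rIL-17B replicate 1 and 18.3 CPM in replicate 2, so that its groups overlapped. HRK, a BH3-only gene best known from neurons, had the smallest p, with 35 and 33 counts in the PBS libraries, 16 counts in rIL-17B replicate 1 and 23 counts in replicate 2 (log2 fold change -1.04, standard error 0.35, unadjusted p = 0.0451, edgeR adjusted p = 0.661). It was the 1 gene of the 10 with an unadjusted p under 0.05 in edgeR, against 1.38% of all genes, and DESeq2 gave 0 of the 10. BBC3, the gene of the BH3-only protein PUMA, had 14.4 and 12.96 CPM in the PBS libraries, 3.83 CPM in rIL-17B replicate 1 and 9.85 CPM in replicate 2 (log2 fold change -1.04, SE 0.58, edgeR adjusted p = 0.661). Both treated libraries were below PBS for HRK, BBC3, BOK, BCL2L2, BNIP3 and BNIP3L, 6 of the 10 tested, where 30.4% of all tested genes were, and above PBS for 0 of the 10, where 28.5% were.

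BNIP3 and BNIP3L, which act mainly as mitophagy receptors, were the most abundant of these 13 per kb. BNIP3 had 96.9 and 98.0 CPM in the PBS libraries, 44.2 CPM in rIL-17B replicate 1 and 93.4 CPM in replicate 2 (log2 fold change -0.55), and BNIP3L 134.9 and 130.8 against 49.5 and 118 CPM (log2 fold change -0.71). BOK, a further member of the effector group, had 317 and 249 counts in the PBS libraries, 190 counts in rIL-17B replicate 1 and 309 counts in replicate 2 (log2 fold change -0.42 after scaling to library size). BCL2L2, a pro-survival gene, had 32.8 and 32.1 CPM in the PBS libraries, 22.4 CPM in rIL-17B replicate 1 and 31.4 CPM in replicate 2 (log2 fold change -0.33). For both genes replicate 1 was the lower of the treated libraries. BCL2L13 had 66.5 and 64.3 CPM in the PBS libraries, 58.1 CPM in rIL-17B replicate 1 and 67.8 CPM in replicate 2 (log2 fold change -0.12), so that the treated libraries lay on opposite sides of PBS. BAD had between 43 and 55 counts in each library, and its groups overlapped. The exons of BCL2L2 overlap BCL2L2-PABPN1 and PPP1R3E, those of BAD overlap GPR137, those of BCL2L12 overlap IRF3 and those of BNIP3L overlap PNMA2 and SDAD1P1, so their counts are uncertain. The pro-survival gene BCL2A1 had 13 and 10 counts in the PBS libraries, 0 counts in rIL-17B replicate 1 and 14 counts in replicate 2. BCL2L10, BCL2L14 and BCL2L15 did not pass the filter, with at most 6 counts in a library.

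**Figure D4:**
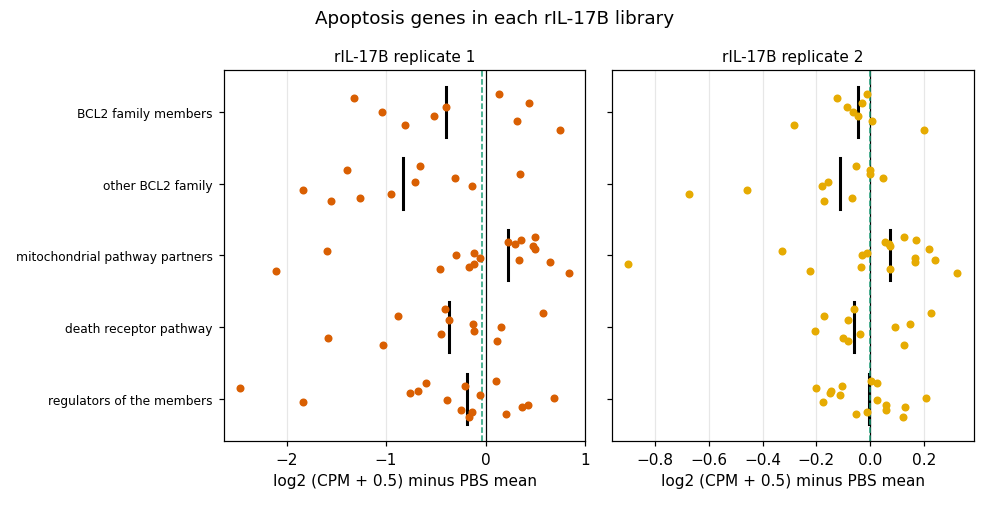
Difference of log2 (CPM + 0.5) from the PBS mean for each tested gene of 5 gene lists, in rIL-17B replicate 1 (left) and replicate 2 (right, with a narrower axis). Black bars are list medians and the dashed line is the median of all tested genes. The medians of the members are -0.40 on the left and -0.05 on the right.

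Downstream of the family, all 17 genes of the mitochondrial pathway list were tested, with 10 above and 7 below 0. Their median log2 fold change was 0.14 with all libraries, where 0 genes passed the threshold on edgeR's adjusted p. Without rIL-17B replicate 1 the median was 0.07. BIRC5, which encodes the mitotic inhibitor of apoptosis survivin, had 94.8 and 97.1 CPM with PBS, 189 CPM in rIL-17B replicate 1 and 120.5 CPM in replicate 2 (log2 fold change 0.61, SE 0.21, edgeR adjusted p = 0.661). On the log2 scale of TMM-normalized CPM, BIRC5 was 0.84 above the PBS mean in rIL-17B replicate 1 and 0.32 above it in replicate 2. Each of these values rests on 1 treated library. The initiator caspase gene CASP9 had 23.1 and 24.6 CPM in the PBS libraries, 37.2 CPM in rIL-17B replicate 1 and 27.9 CPM in replicate 2 (log2 fold change 0.37, edgeR adjusted p = 0.661), and its exons overlap CELA2B. VDAC1 and VDAC2, the most abundant of the list per kb, encode channels of the outer mitochondrial membrane, VDAC2 being a known partner of BAK1. VDAC1 had 227 and 219.6 CPM in the PBS libraries, 346 CPM in rIL-17B replicate 1 and 244 CPM in replicate 2, and VDAC2 127 and 123 against 176 and 141 CPM. The log2 fold change was 0.32 for VDAC1 and 0.27 for VDAC2, and edgeR gave both an adjusted p of 0.661.

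In the death receptor list, all 11 genes were tested, 3 above and 8 below 0, with a median log2 fold change of -0.22, or -0.06 without rIL-17B replicate 1, and 0 genes past the threshold on edgeR's adjusted p. TNFRSF10A and TNFRSF10B, both receptors for TRAIL, lay on opposite sides. TNFRSF10A had 11.8 and 12.9 CPM in the PBS libraries, 20.5 CPM in rIL-17B replicate 1 and 14.6 CPM in replicate 2 (log2 fold change 0.42), whereas TNFRSF10B had 195.5 and 189 against 115 and 171 CPM (log2 fold change -0.48). Both overlap genes on the opposite strand. TNFRSF1A, the TNF receptor and the most abundant of the list per kb, had 174 and 178 CPM in the PBS libraries, 149.9 CPM in rIL-17B replicate 1 and 167 CPM in replicate 2 (log2 fold change -0.22).

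Among 16 regulators of the members, all tested, 5 were above and 11 below 0, with a median log2 fold change of -0.09, or -0.0026 without rIL-17B replicate 1, and 0 genes past the threshold on edgeR's adjusted p. E2F1, a transcription factor that can induce BH3-only genes, had 44.5 and 43.1 CPM in the PBS libraries, 78.0 CPM in rIL-17B replicate 1 and 50.9 CPM in replicate 2 (log2 fold change 0.47, standard error 0.20). USP9X, a deubiquitinase that stabilises MCL1, had 259 and 260.01 CPM in the PBS libraries, 368 CPM in rIL-17B replicate 1 and 285 CPM in replicate 2 (log2 fold change 0.25). CDKN1A, the gene of a cell cycle inhibitor, had 347 and 345 CPM with PBS, 68.4 CPM in rIL-17B replicate 1 and 302 CPM in replicate 2 (log2 fold change -0.93, standard error 0.82). ATF4, the factor of the integrated stress response, had 457 and 429 CPM in the PBS libraries, 372 CPM in rIL-17B replicate 1 and 453 CPM in replicate 2 (log2 fold change -0.17).

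Promoter windows of RefSeq (GRCh38.p14, 250 bases before to 50 after a transcript start) covered 8 of the 10 members with 14 windows. They are shown for BAX, the member whose rIL-17B replicate 2 was farthest below PBS, and for BCL2L11, which was higher in rIL-17B replicate 1. BMF, BAK1 and BCL2 were higher there too, BMF at 1.88 times PBS against 1.49 for BCL2L11, and their windows held neither motif searched. Both windows shown hold a marked motif, and a link between motif and level was not tested. Capitals mark CACGTG, the E-box letters, and GTAAACA, a FOXO motif, each searched on both strands, and the motifs do not overlap each other.
BAX: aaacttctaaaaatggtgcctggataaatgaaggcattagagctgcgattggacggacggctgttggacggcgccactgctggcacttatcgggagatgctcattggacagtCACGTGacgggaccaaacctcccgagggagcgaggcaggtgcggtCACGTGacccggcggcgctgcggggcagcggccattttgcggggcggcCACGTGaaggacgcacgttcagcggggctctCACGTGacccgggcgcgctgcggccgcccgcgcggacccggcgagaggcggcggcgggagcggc
BCL2L11: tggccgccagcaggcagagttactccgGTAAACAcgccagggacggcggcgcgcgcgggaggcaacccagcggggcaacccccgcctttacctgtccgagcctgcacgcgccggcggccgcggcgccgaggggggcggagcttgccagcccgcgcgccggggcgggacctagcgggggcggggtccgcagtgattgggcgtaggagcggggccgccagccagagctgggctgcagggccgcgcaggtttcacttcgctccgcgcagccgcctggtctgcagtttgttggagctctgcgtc
The BAX window, chr19:48954625-48954924 on the plus strand, held CACGTG 4 times. At least 1 match was found in 7.26% of 35116 windows, and the share with 4 was not counted. The window of BCL2L11, chr2:111120664-111120963 on the plus strand, held GTAAACA 1 time, against 3.42% of windows with at least 1. Of the other members, BID had CACGTG in 2 of 5 windows, which overlap each other, and BCL2, BCL2L1, PMAIP1, BAK1 and BMF had neither set of letters. A match of letters does not show a bound site, and no binding was measured here.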

How the data were processed

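RNA-seq libraries of HGC-27 cells (2 PBS, 2 rIL-17B) were grouped by the treatment in the labels. The authors deposited raw counts per gene name, 1 table per library, without normalization. Names with 0 counts were not listed and were given 0. The submitters' processing notes name Bowtie2 2.2.3, HISAT2 2.1.0, TopHat2, HTSeq 0.6.0 and hg38. Which gene annotation was counted, and whether by strand, is not given in the sources used here, so counts of overlapping genes are uncertain.

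Repeated names (83 to 98 in a library, always with equal counts) were used once, and 22 to 25 entries whose names had become date numbers were left out. Library totals were then 12888029 to 17555879 counts. CPM was the count divided by this total, and levels per kb used the union of GENCODE 29 exons (98.1% of names were found in GENCODE 29). The 9 members above the filter of filterByExpr were tested in 1 fit over 16361 genes with edgeR 4.0.16 (R 4.3.3), TMM factors and the quasi-likelihood F test without a block, with Benjamini-Hochberg adjustment over all genes and a threshold of 0.05. The standard error is the log2 fold change divided by the square root of F. TMM-normalized CPM was used for counts of groups without overlap and, with 0.5 CPM added, for 2-fold differences. The edgeR step was tested on simulated counts with the spread of the PBS libraries and with larger changes than those of the members. That setting had no library that stood apart, so it does not show how well the step finds changes here. Ratios of counts have exact conditional (Clopper-Pearson) 95% intervals.

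Alternatives were DESeq2 1.42.0, upper-quartile factors, plain totals, no low-count filter, a minimum of 10 counts in each library, a replicate block, an adjusted p threshold of 0.1, leaving out each library, totals over all entries and the longest transcript as length. The treated libraries taken singly for groups without overlap were added after seeing the data. The members, gene lists and tests were chosen with earlier results of these data known. Genes were named by a rule: all members and other family genes, and in each other list the 2 with the smallest p and the 2 with the highest PBS level per kb. Tables and plots were made with Python 3.11.15.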

Additional observations from a re-analysis of the deposited data

How the results depend on the processing

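The count of 0 genes with an adjusted p under 0.05, over all genes, the members and the other apoptosis lists alike, was found again with DESeq2, upper-quartile factors, plain totals, no filter, the minimum of 10 counts and, where tried, the threshold of 0.1. It was also found with the replicate number as a block, where all genes gave 0, the members 0 and the lists 0, and where the median of the members was -0.24. Deviations of libraries that share a number correlated at 0.08 over 16361 genes, and the numbers were not taken to pair the libraries. Leaving out 1 library at a time gave 0 to 9489 called genes, 0 to 8 called members and 0 to 37 called genes of the lists. The highest counts came without rIL-17B replicate 2, and without rIL-17B replicate 1 they were 504, 0 and 1. With all libraries, 10 other family genes, 17 mitochondrial pathway genes, 11 death receptor genes and 16 regulators were tested. Counts from a fit with 1 treated library rest on that library, and whether the lists differ there from all genes was not tested. The median log2 fold change of the members was between -0.40 and -0.05 when 1 library was left out. It was between -0.27 and -0.17 in the other settings. Groups without overlap numbered 6 of 9 members with each scaling, and 6 and 9 when rIL-17B replicate 1 or 2 was left out. Of all tested genes, 58.9% were without overlap when all libraries were used. With rIL-17B replicate 2 alone, 36.0% lay above and 37.1% below both PBS libraries. With rIL-17B replicate 1 alone, these shares were 42.5% and 47.7%, so the counts of members do not stand out. The direction turned without rIL-17B replicate 1 for BCL2, with -0.011 to 0.14 over the fits that leave out 1 library, and BCL2L11, with -0.032 to 0.44, and the other 7 members kept theirs in every setting. With totals over all entries of each table the summed PBS level of the members was 551 in place of 560.3 CPM, and with the longest transcript as length MCL1 held 33.8% of their summed PBS level per kb in place of 39.9%. For BAX the adjusted p was between 0.118 and 0.977 over the alternatives except the fit without rIL-17B replicate 2, where it was 2.73e-13. With 2 libraries a group and 1 that stood apart, small differences could not be resolved.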
